A study of Rattus norvegicus with 6 samples.

Results

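Fragments of the nuclear methionine tRNAs were followed in small RNA libraries from the hippocampus of 3 nicotine-treated and 3 saline-treated Sprague-Dawley rats. All rats were 6 to 8 weeks old, and the labels give no dose or duration of treatment. A member was any listed fragment whose name carries iMet-CAT, the initiator tRNA, or Met-CAT, the elongator tRNA, and no mitochondrial prefix. This took in 14 of 615 listed fragments, namely 12 of the initiator and 2 of the elongator. Of the initiator fragments 7 were trailers and 5 came from the mature tRNA, and the elongator gave 1 of each. Values are CPM, read counts scaled to a common library total. Because 1 read is 1 fragment, levels of different fragments were compared without a correction for length.

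Cells carry separate methionine tRNAs for starting a protein and for extending it. The initiator delivers the first methionine to the small ribosomal subunit together with the factor eIF2, whereas the elongator serves the methionine codons inside the message. Each tRNA is made by RNA polymerase III as a longer precursor, and the nuclease RNase Z (ELAC2 in mammals) cuts off the stretch behind the mature 3' end. That stretch is the trailer, also called tRF-1, and it ends in the run of U at which the polymerase stops. Fragments of the mature tRNA arise by cuts in its loops, and 3' fragments of this kind carry the CCA tail that is added after the trailer has gone.

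The totals that scale the CPM were recovered from the values. They were 90828 to 128694 reads in the nicotine group and 154414 to 374763 reads in the saline group. Which reads these totals count was not established, and depth here means this total. Depth and treatment cannot be told apart in this design. The listed fragments held 47.1% to 57.4% of the total in nicotine libraries and 52.7% to 68.8% in saline libraries. Initiator fragments rested on 1147 to 2000 reads per nicotine library and 1999 to 3946 reads per saline library. Elongator fragments had 3, 0 and 2 reads in nicotine 1, 2 and 3, and 4, 8 and 13 reads in saline 1, 2 and 3. Nothing in the labels states more than numbered rats, and p-values measure the spread between these libraries. In whole tissue, fewer cells of a type and less RNA per cell cannot be told apart.

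Initiator trailers of 15 and 16 nt made up nearly all of the methionine signal. tRF-+1:T15-iMet-CAT-1 was the 8th of the 615 fragments by mean level, with 6826, 6894 and 8003 CPM in the nicotine libraries and 5529, 8982 and 5266 CPM in the saline libraries. tRF-+1:T16-iMet-CAT-1 was the 10th, with 4646, 4620 and 6418 CPM in the nicotine libraries and 4331, 6372 and 3598 CPM in the saline libraries. Saline 2 and nicotine 3 were the high libraries for the 16 nt form, and the groups overlapped for both lengths. The names start both fragments at the first base behind the mature tRNA and give them different lengths, so they differ at their 3' end. The 15 nt form exceeded the 16 nt form in 6 of 6 libraries, by a ratio of 1.47, 1.49 and 1.25 in nicotine 1, 2 and 3 and of 1.28, 1.41 and 1.46 in saline 1, 2 and 3 (exact two-sided sign-flip permutation test over 6 libraries, p = 0.03125, the smallest it can give). Both lengths were picked as the most abundant members in these same libraries, so that p-value lends no support to their order. The ratio of the 15 nt to the 16 nt form on the log2 scale differed between nicotine and saline by 0.018 (exact two-sided permutation p = 0.8).

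**Figure D1:**
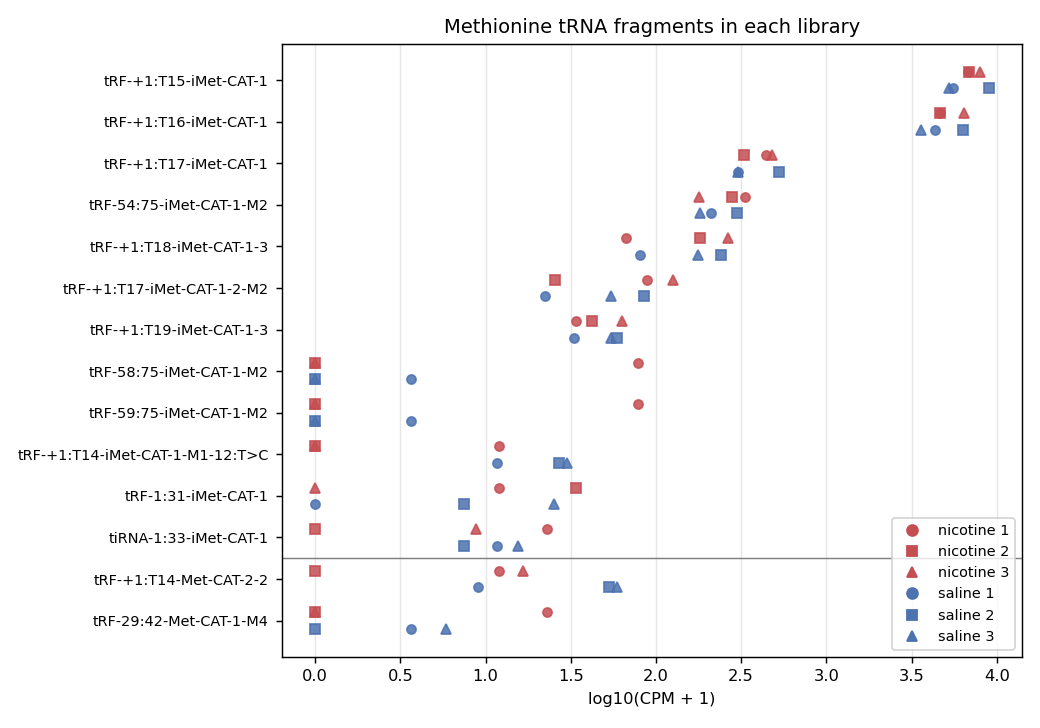
CPM of the 14 methionine tRNA fragments in each library on a log10(CPM + 1) axis, nicotine libraries above saline libraries in each row; the line parts the 12 initiator fragments from the 2 elongator fragments. The 15 and 16 nt initiator trailers lie between 3598 and 8982 CPM in all 6 libraries, and fragments at 0 on the axis had no read in that library.

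The remaining initiator trailers were longer or shorter, at a small part of that level. tRF-+1:T17-iMet-CAT-1 had 440, 327 and 482 CPM in the nicotine libraries and 302, 525 and 301 CPM in the saline libraries. A second 17 nt trailer, tRF-+1:T17-iMet-CAT-1-2-M2, had 88.1, 24.5 and 124 CPM in the nicotine libraries and 21.3, 84.2 and 53.3 CPM in the saline libraries. Why trailers of equal length and start carry separate names is not explained, and no sequence was available to compare them. tRF-+1:T18-iMet-CAT-1-3 had 66.1, 179.9 and 264 CPM in the nicotine libraries and 80.1, 239.6 and 175 CPM in the saline libraries. tRF-+1:T19-iMet-CAT-1-3 had 33.0, 40.9 and 62.2 CPM in the nicotine libraries and 32.0, 58.3 and 53.3 CPM in the saline libraries. Library 1 of each group was the lowest for these 2 fragments, and the groups overlapped for all 4.

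Grouped by length, trailers of 14 to 16 nt held 94.7% ± 0.68 of the initiator trailer CPM in nicotine libraries and 94.7% ± 0.99 in saline libraries (SD, n = 3 each). The 15 nt form alone held 55.2% ± 2.66 in nicotine libraries and 54.8% ± 1.01 in saline libraries, and the 16 nt form held 39.5% ± 2.03 in nicotine libraries and 39.7% ± 2.09 in saline libraries (SD, n = 3 each). No initiator trailer over 20 nt was listed. The 101 listed trailers of other nuclear tRNAs were spread over 14 to 33 nt, and those of 14 to 16 nt held 22.6% ± 1.47 of their CPM in nicotine libraries and 22.8% ± 1.57 in saline libraries (SD, n = 3 each). Other nuclear trailers over 20 nt held 48.9% ± 4.88 in nicotine libraries and 50.2% ± 2.63 in saline libraries (SD, n = 3 each). Weighted by CPM, initiator trailers averaged 15.5 to 15.6 nt over the 6 libraries, and the other nuclear trailers 19.5 to 20.5 nt. The within-library difference was -4.50 nt, with initiator trailers shorter in 6 of 6 libraries (exact two-sided sign-flip permutation p = 0.03125). By number, however, 48 of the 101 other nuclear trailers were 14 to 16 nt and 29 were over 20 nt. Only 2 fragments of 22 nt held 25.7% of the other nuclear trailer CPM in nicotine and 26.9% in saline libraries. Arginine parents weigh heavily in that mean, since Arg-ACG and Arg-TCG trailers averaged 7175 and 2579 of 15198 CPM over the 6 libraries. Between nicotine and saline the mean initiator trailer length differed by -0.0030 nt (exact two-sided permutation p = 1).

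**Figure D2:**
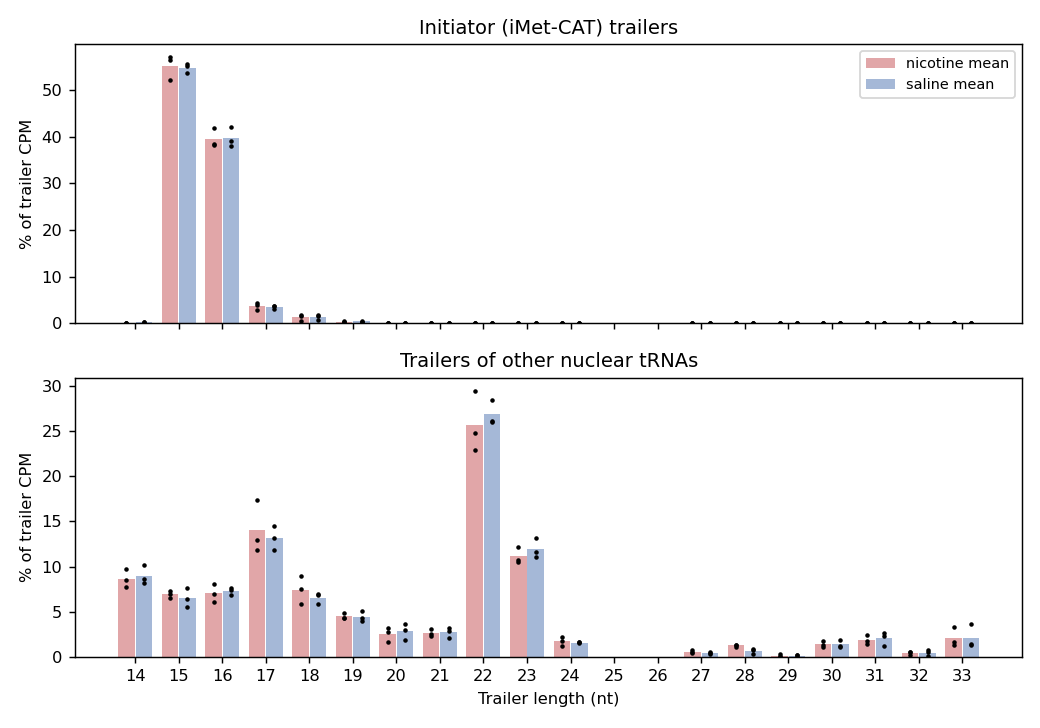
Share of trailer CPM at each trailer length in nt for the initiator (upper panel) and for other nuclear tRNAs (lower panel); bars are means of 3 nicotine (left) and 3 saline (right) libraries, starting at 0, and dots are single libraries. Initiator trailers sit at 15 and 16 nt in both groups, and trailers of other tRNAs reach 33 nt.

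Among 46 nuclear tRNA parents, counted by anticodon, 28 had a listed trailer, and the initiator had the highest trailer level in each of the 6 libraries. Its summed trailers reached 12111, 12087 and 15354 CPM in the nicotine libraries and 10305, 16287 and 9475 CPM in the saline libraries. They held 41.4%, 48.7% and 40.1% of all nuclear trailer CPM in the nicotine libraries and 54.6%, 54.9% and 36.3% in the saline libraries. The next parent, Arg-ACG, had 8533, 5209 and 10094 CPM of trailers in the nicotine libraries and 4219, 6172 and 8825 CPM in the saline libraries. The ratio of the initiator to Arg-ACG ran from 1.07 to 2.64 and was above 1 in 6 of 6 libraries (exact two-sided sign-flip permutation p = 0.03125). Saline 3 gave the lowest ratio, so in that library these neighbours in the order lay close together. The ratio to the third parent, Arg-TCG, ran from 3.18 to 9.42 (exact two-sided sign-flip permutation p = 0.03125). Arg-ACG and Arg-TCG were picked by their rank in these same libraries. The direction of both comparisons was thus set by the ranking, and their p-values lend no support to it.

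**Figure D3:**
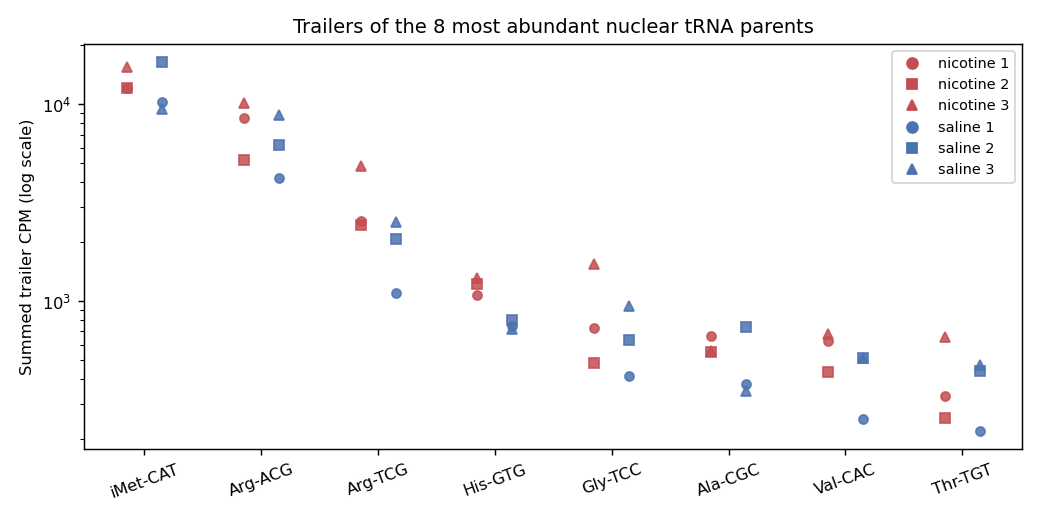
Summed trailer CPM (log scale) of the 8 nuclear tRNA parents with the highest mean trailer level, with nicotine libraries left of saline libraries. The initiator iMet-CAT lies at 9475 to 16287 CPM, above Arg-ACG in each of the 6 libraries.

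Fragments of the mature initiator tRNA were scarce beside its trailers. They summed to 517, 311 and 186 CPM in the nicotine libraries and 224, 311 and 218 CPM in the saline libraries. The most abundant was the 22 nt 3' fragment tRF-54:75-iMet-CAT-1-M2. By its positions it runs from the T loop to the CCA end, and no sequence was available to check this. It had 330, 278 and 179 CPM in the nicotine libraries and 208, 298 and 179 CPM in the saline libraries. Its groups overlapped across nearly their whole range. The shorter 3' fragments tRF-58:75-iMet-CAT-1-M2 and tRF-59:75-iMet-CAT-1-M2, of 18 and 17 nt, each had 7 reads in nicotine 1, 1 read in saline 1 and no read in the other 4 libraries. Both were therefore read almost entirely in nicotine 1, the shallowest library, where 7 reads amount to 77.1 CPM, and neither passed the filter on low values.

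Fragments from the 5' end of the initiator, the kind made by cuts near the anticodon loop, were at the limit of detection. tRF-1:31-iMet-CAT-1 had 1, 4 and 0 reads in nicotine 1, 2 and 3 and 0, 1 and 5 reads in saline 1, 2 and 3. tiRNA-1:33-iMet-CAT-1, named as a stress-induced fragment in the files, had 2, 0 and 1 reads in the nicotine libraries and 4, 1 and 3 reads in the saline libraries. With 11 reads of each over 6 libraries, a difference between the groups was not detectable at this depth for either.

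Trailers took 95.9%, 97.5% and 98.8% of the initiator CPM in nicotine 1, 2 and 3 and 97.9%, 98.1% and 97.7% in saline 1, 2 and 3. The 95% Wilson intervals ran from 94.6% to 96.9% in nicotine 1 and from 98.2% to 99.2% in nicotine 3. They cover only counting error and take each read as a separate molecule, although no molecular identifiers are described. The nicotine libraries thus lay on both sides of the 3 saline libraries, and the difference of -0.52 percentage points gave an exact two-sided permutation p of 0.7. It was 0.23 points without nicotine 1, the library that held the short 3' fragments. In the other nuclear tRNAs trailers took 3.77% ± 1.45 of the CPM in nicotine libraries and 2.29% ± 0.995 in saline libraries (SD, n = 3 each). Glycine tRNA fragments dominate that sum, and without them the trailer share was 16.1% ± 3.89 in nicotine libraries and 12.0% ± 2.70 in saline libraries. The initiator lay above the other nuclear tRNAs by 92.1 to 96.6 points, or by 78.9 to 88.8 points without glycine, in 6 of 6 libraries (exact two-sided sign-flip permutation p = 0.03125 for each). High trailer shares were also seen for arginine parents. The share ran from 95.9% to 98.8% over the 6 libraries for the initiator, from 95.8% to 99.2% for Arg-ACG and from 94.3% to 99.4% for Arg-TCG, so these neighbours in the order overlapped. The only listed fragment of Arg-CCT was a trailer.

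**Figure D4:**
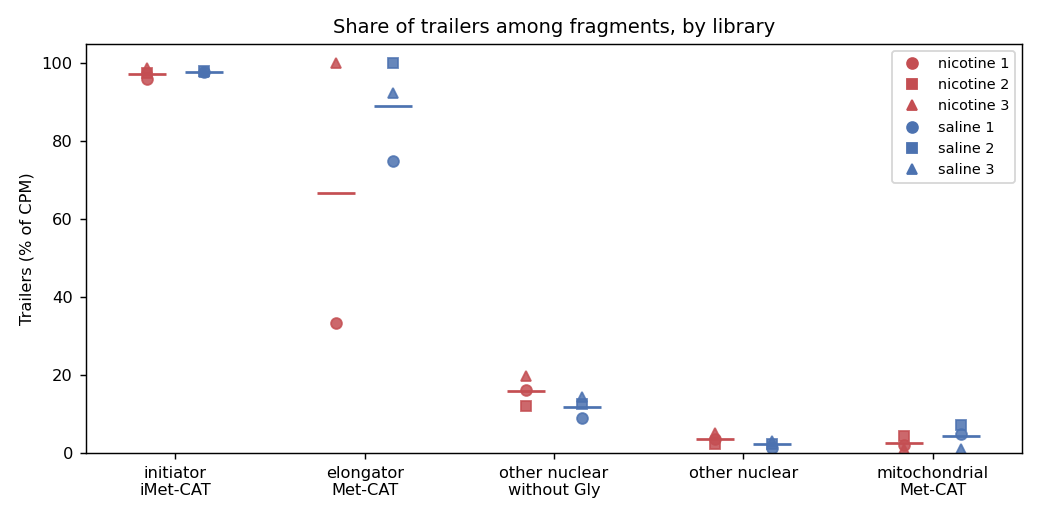
Trailers as a percent of the CPM of all fragments of each tRNA class, by library, with nicotine left of saline and short lines at group means. Initiator points lie at 95.9% to 98.8%; the elongator has no point for nicotine 2, which had no elongator read, and its other points rest on 2 to 13 reads.

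The elongator was nearly absent from the listed fragments. Its 14 nt trailer tRF-+1:T14-Met-CAT-2-2 had 11.0, 0 and 15.5 CPM in nicotine 1, 2 and 3 and 8.01, 51.8 and 58.2 CPM in saline 1, 2 and 3. Its internal fragment tRF-29:42-Met-CAT-1-M4, of 14 nt from the anticodon arm, had 22.0, 0 and 0 CPM in the nicotine libraries and 2.67, 0 and 4.85 CPM in the saline libraries. These values are 4 reads in all for the internal fragment and 26 for the trailer. The initiator held 99.7%, 100% and 99.9% of the methionine CPM in the nicotine libraries and 99.9%, 99.7% and 99.4% in the saline libraries. It exceeded the elongator in 6 of 6 libraries (exact two-sided sign-flip permutation p = 0.03125). In the 5 libraries with elongator reads the difference was 7.24 to 9.88 on the log2(CPM + 1) scale, and the value of 13.6 in nicotine 2 rests on 0 elongator reads and so on the pseudocount. The share of the initiator differed between the groups by 0.23 percentage points (exact two-sided permutation p = 0.2).

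Trailer shares of the elongator could be formed in 5 libraries, since nicotine 2 had no elongator read. They were 33.3% of 3 reads and 100% of 2 reads in nicotine 1 and 3, and 75.0% of 4 reads, 100% of 8 reads and 92.3% of 13 reads in saline 1, 2 and 3. The initiator share exceeded the elongator share by 17.6 points on average over these 5 libraries (exact two-sided sign-flip permutation p = 0.25, where the smallest possible is 0.0625). Whether the elongator leaves a smaller share as trailers was therefore not detectable at this depth. The difference in elongator share between nicotine and saline was -22.4 points (exact two-sided permutation p = 0.7) and 10.9 points without nicotine 1.

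Nicotine was compared with saline in a limma fit over all fragments, on log2(CPM + 1) with Benjamini-Hochberg adjustment. None of the 586 tested fragments passed an adjusted p of 0.05 (0.00% called), and 41 had an unadjusted p under 0.05 (7.00%), of which 30 were higher and 11 lower in nicotine (1.88%). After TMM scaling 32 had an unadjusted p under 0.05, of which 8 were higher and 24 lower. edgeR and DESeq2 on recovered reads also passed 0, with 13 of 221 and 17 of 615 fragments at an unadjusted p under 0.05. The filter used with edgeR left out the 14 nt methionine trailers, among others. Without nicotine 3 the count past the adjusted threshold was 5, without saline 2 it was 1, and no methionine fragment was among them. Of the 14 members, 12 passed the filter on low values. The median fragment of the whole fit had a log2 fold change of 0.28, which TMM scaling moved to -0.02, and 64.5% of tested fragments lay above 0 and 35.5% below 0 on the CPM as deposited. A value near 0.28 thus marks the middle of these data.

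The abundant initiator fragments did not pass, and their fold changes lay near that middle. The log2 fold change was 0.18 (SE 0.38) for the 15 nt trailer, 0.16 (SE 0.38) for the 16 nt trailer and 0.18 (SE 0.38) for tRF-+1:T17-iMet-CAT-1. These became -0.15, -0.17 and -0.14 after TMM scaling. The 22 nt 3' fragment tRF-54:75-iMet-CAT-1-M2 had 0.19 (SE 0.40), or -0.14 after TMM scaling. Adjusted p values of these 4 fragments in limma were 0.922 to 0.939. The 7 initiator trailers divided into 4 with positive and 3 with negative values (median 0.16), or 1 and 6 after TMM scaling (median -0.17). Of the 96 tested trailers of other nuclear tRNAs, 68 had positive and 28 negative values (median 0.48), or 59 and 37 after TMM scaling (median 0.16). The initiator trailers counted as 1 family averaged 13184 CPM ± 1880 in nicotine rats and 12023 CPM ± 3717 in saline rats (SD, n = 3 each), a log2 fold change of 0.17 (SE 0.30, adjusted p = 0.789 over 172 families in limma, of which 0.00% were called). The initiator fragments whose names end at position 75 are called CCA-ended here. As a family they averaged 314 CPM ± 156 in nicotine rats and 230 CPM ± 61.0 in saline rats. Their log2 fold change was 0.36 (SE 0.40), and -0.014 without nicotine 1.

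**Figure D5:**
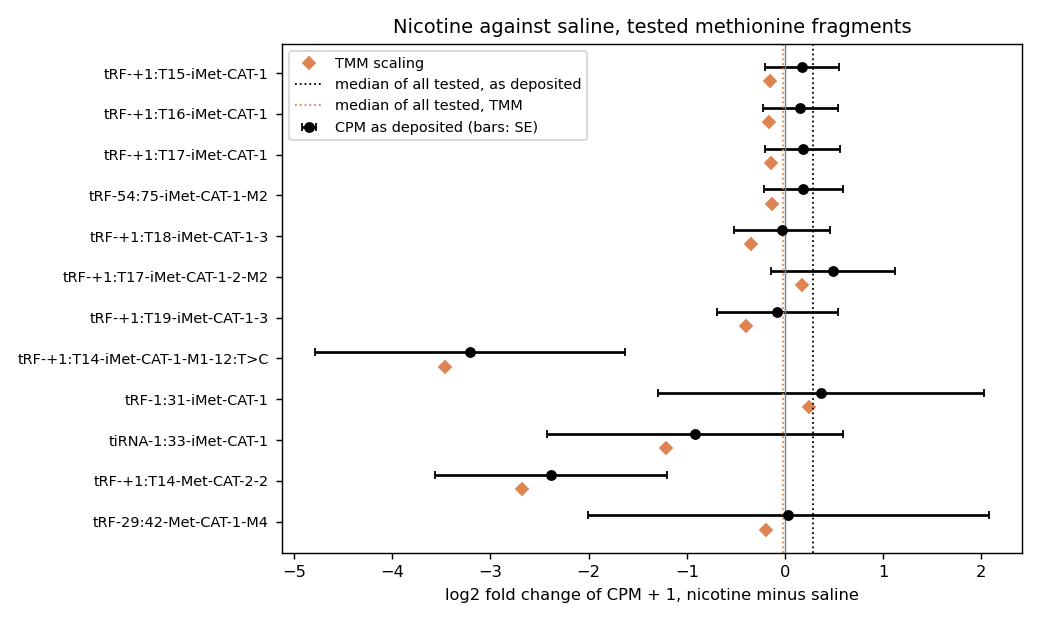
Log2 fold change of CPM + 1, nicotine minus saline, for the 12 tested methionine fragments; black points with SE bars are the deposited CPM, diamonds the TMM-scaled values, and dotted lines the medians of all 586 tested fragments (0.28 and -0.02). The abundant fragments at the top lie near the medians, and the 14 nt trailers lie far to the left with wide errors.

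The 14 nt trailers of both tRNAs were the members with the lowest fold changes, and both rest on few reads. The name of the initiator one carries a base difference, 12:T>C, which is not explained. It may thus not be a plain shorter form of the other initiator trailers. Without it the difference in summed initiator CPM was 0.18 on the log2 scale, nicotine minus saline. The initiator fragment +1:T14-iMet-CAT-1-M1-12:T>C had 1, 0 and 0 reads in nicotine 1, 2 and 3 and 4, 4 and 6 reads in saline 1, 2 and 3. A floor of 3 reads per library equals 24.5 CPM in nicotine 2 and 23.3 CPM in nicotine 3, a level within the saline range of 10.7 to 29.1 CPM. Pooled over each group it stood at 2.93 CPM in nicotine and 19.0 CPM in saline, a ratio of 0.154 with an exact 95% interval of 0.00363 to 1.01 for counting error. tRF-+1:T14-Met-CAT-2-2 had 3 reads in nicotine and 23 reads in saline libraries, or 8.78 and 31.3 CPM pooled. The ratio was 0.281, with an exact 95% interval of 0.0539 to 0.929 for counting error. Both intervals pool the reads of all rats in a group and leave out the spread between rats. Nicotine 1 lay within the saline range for the initiator trailer, and nicotine 1 and 3 did for the elongator trailer, so the groups overlapped. Their log2 fold changes were -3.21 (SE 1.58) and -2.38 (SE 1.18). Leaving out 1 library at a time gave -4.40 to -2.61 for the initiator trailer and -3.26 to -1.11 for the elongator trailer, whose smallest change was that without nicotine 2. With a pseudocount of 10 in place of 1, the values were -1.26 and -1.27. With the pseudocount of 1 and all 6 libraries, the unadjusted p was 0.0466 and 0.0477, and the adjusted p was 0.657 for each in limma, so neither passed. They were 2 of 12 tested members with an unadjusted p under 0.05 and a lower value in nicotine, against 1.88% of all tested fragments. Each listed fragment reached at least 21.3 CPM in some library, and these 2 did so only in saline 2 and 3. Both thus stood in the list through the group where they were high. Their fold changes, p-values, intervals and this share therefore lend no support to a lower level in nicotine. None of the 12 had groups without overlap, against 12.6% of all tested fragments higher and 1.54% lower in nicotine.

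The other 3 low members gave wide errors. tiRNA-1:33-iMet-CAT-1 had a log2 fold change of -0.92 (SE 1.51), tRF-1:31-iMet-CAT-1 of 0.37 (SE 1.66) and tRF-29:42-Met-CAT-1-M4 of 0.03 (SE 2.04). Of the less abundant trailers, tRF-+1:T17-iMet-CAT-1-2-M2 had 0.49 (SE 0.63), tRF-+1:T18-iMet-CAT-1-3 had -0.03 (SE 0.49) and tRF-+1:T19-iMet-CAT-1-3 had -0.08 (SE 0.62). Each of these 6 differences was smaller than its SE. The fold change of a fragment with 0 reads in some libraries depends on the pseudocount and is no bound.

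Summed over all fragments, the initiator had 12628, 12398 and 15541 CPM in the nicotine libraries and 10529, 16598 and 9693 CPM in the saline libraries. The difference on the log2 scale was 0.17 (exact two-sided permutation p = 0.6), and -0.15 after TMM scaling. The elongator had 33.0, 0 and 15.5 CPM in the nicotine libraries and 10.7, 51.8 and 63.0 CPM in the saline libraries, a difference of -2.04 on the log2(CPM + 1) scale (exact two-sided permutation p = 0.3). Without nicotine 2, which had 0 elongator reads, the difference was -0.52, and without nicotine 1 it was -3.07. A test of 3 against 3 libraries cannot give a p under 0.1. Over all 15 exact tests run, 7 had a p under 0.05, each of them a comparison within 6 libraries at its smallest possible p, and their Benjamini-Hochberg adjusted p was 0.067 (exact permutation), so none passed after adjustment. The mitochondrial methionine tRNA, which serves translation inside mitochondria, gave 1949, 1251 and 1880 CPM over 10 fragments in the nicotine libraries and 862, 1082 and 1256 CPM in the saline libraries. Its trailers took 1.16% to 7.19% of that CPM, far below the initiator in each library.

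Some other families followed the initiator trailers across libraries. Over the 6 libraries, the families whose log2(CPM + 1) was most like that of the summed initiator trailers, out of 166, were trailers of Gln-CTG (Pearson r = 0.92), 3' fragments of Ser-TGA (r = 0.92), trailers of Ser-CGA (r = 0.88), 5' fragments of Val-CAC (r = 0.86) and trailers of Gln-TTG (r = 0.85). These are descriptions over 6 points that share library and scaling, and the families were picked for the highest values. Trailers of Gln-CTG had 44.0, 40.9 and 85.5 CPM in the nicotine libraries and 8.01, 90.7 and 14.5 CPM in the saline libraries. They were high in nicotine 3 and saline 2, the libraries where the initiator trailers were also highest.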

How the data were processed

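Per the labels' protocols, adapters were ligated to both ends of hippocampal total RNA and the amplified, gel-sized libraries were sequenced on a NextSeq. Tools named in the submitters' processing notes are Bowtie, cutadapt and FastQC, with no version. Genome build, tRNA annotation and aligner settings: not given in the sources used here. How reads matching several fragments were divided is not stated either. The authors deposited CPM for 615 fragments. In 2 of 6 files the header lacks a unit, and the values have the same form as in the others. All values (100%) were whole multiples of 1 read within 0.001 reads, so reads and the totals that scale the CPM were recovered. 1 read was worth 2.67 to 11.0 CPM. Each listed fragment reached at least 21.3 CPM in some library, so the list depends on depth.

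Groups and rat numbers came from the titles. Libraries of 1 group differed by more than sampling noise (chi-square over degrees of freedom 11.9 to 24.4). The members, lists and tests were chosen with earlier results of these data known. Named with full values were the 10 fragments of each tRNA with the highest mean and any with an unadjusted p under 0.05; the rest, few here, were added for completeness. The test was limma 3.58.1 (trend, robust; R 4.3.3) on log2(CPM + 1), two-sided, restricted to fragments that reached 1 CPM in 3 or more libraries, Benjamini-Hochberg at 0.05, over all fragments and over sums per class and anticodon. Classes were read from positions in the names. edgeR 4.0.16 and DESeq2 1.42.0 on recovered reads were alternatives. Sums and shares were compared by exact permutation over libraries (scipy 1.17.1). Elongator sums were tested as log2(CPM + 1), since 1 library had 0. The limma fit was tested on data simulated with large changes. Recovery was checked only for fragments with a mean of at least 100 CPM. That test says nothing on recovery of small changes or of scarcer fragments.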

Additional observations from a re-analysis of the deposited data

How the results depend on the processing

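Alternatives covered scaling, pseudocount, filters, test, a replicate block and leaving out each library. No methionine fragment or family passed an adjusted p of 0.05 under any of them (smallest 0.459 for fragments, 0.296 for families). Fragments called over the whole list numbered 0 in limma, 1 with the replicate block, and 0 to 5 with a library left out; families called numbered 0 to 2 with a library left out. Correlations of deviations were 0.087, 0.109 and 0.161 between libraries of the same rat number. Between libraries of different numbers they were -0.104 to -0.0051, so each library correlated best with its own number. The labels state no pairing, and the main fit used no replicate block. Whether the numbers mark pairs was not tested.

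After TMM scaling the summed initiator CPM turned to -0.15 and after median-of-ratios scaling to -0.16. The same scalings turned the fold changes of T15 to -0.15 and -0.16, T16 to -0.17 and -0.18, T17 (iMet-CAT-1) to -0.14 and -0.15, tRF-54:75 to -0.14 and -0.15, tRF-29:42 to -0.19 and -0.19, and the initiator trailer family to -0.16 and -0.17. edgeR gave -0.13, -0.14, -0.12 and -0.097 for T15, T16, T17 and tRF-54:75, -0.31 for the trailer family and -0.056 for the CCA-ended family. DESeq2 gave -0.17, -0.18, -0.16, -0.13 and -0.24 for the first 5 of these. A pseudocount of 0.5 took tRF-29:42 to -0.20. These rescalings lower nearly all fragments together; the other sign changes had no tested cause.

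With 1 library left out, sign changes gave ranges of -0.024 to 0.39 for T16, -0.0020 to 0.44 for tRF-54:75, -0.048 to 1.17 for T17 (iMet-CAT-1-2-M2), -0.48 to 0.54 for T18, -0.34 to 0.12 for T19, -0.89 to 1.81 for tRF-1:31, -1.90 to 0.36 for tiRNA-1:33, -0.70 to 0.79 for tRF-29:42 and -0.014 to 0.70 for the CCA-ended family. Differences ran from -1.22 to 0.23 points in initiator trailer share, -55.8 to 10.9 points in elongator trailer share and -0.025 to 0.0085 nt in initiator trailer length. A minimum mean of 100 CPM leaves no elongator fragment, so that alternative gave no elongator value. Of 196 alternatives for single fragments and families, 158 kept their sign. Depth limits the elongator and every fragment under about 20 reads.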
